A study of Homo sapiens with 12 samples.

Results

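The genes described here are 10 nuclear genes whose products transcribe the mitochondrial genome or look after the RNA made from it: TFAM, TFB2M, POLRMT, TEFM, MTERF1, TFB1M, LRPPRC, SLIRP, PNPT1 and SUPV3L1. They were chosen by name for these functions, each had a single entry among the 58735 genes of the count table, and all 10 were among the 16618 genes tested. The study compared 2 immortalized human keratinocyte lines, TIGK from the gingiva and HaCaT from the skin, each grown in DermaLife K Keratinocyte Complete Medium and either left untreated (Tctrl, Hctrl) or exposed to 5 mM hydrogen peroxide (H2O2) for 3 h (Thp, Hhp). PolyA RNA was sequenced from 3 libraries per group, 12 in all, and reads were counted per gene. Oral and skin keratinocytes were each represented by 1 line, so a difference between the lines is a difference between these cultures. The labels do not say that the 3 libraries of a group came from separate cultures, so p-values measure the spread between these libraries.

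The mitochondrial genome is a small circle, transcribed from both strands by an RNA polymerase of its own into long transcripts that are cut into mRNAs, rRNAs and tRNAs. TFAM packs the circle and bends promoter DNA, TFB2M opens the promoter, POLRMT is the polymerase, TEFM keeps it moving, and MTERF1 binds downstream of the rRNA genes, where it blocks transcription. TFB1M methylates the small ribosomal RNA, the LRPPRC and SLIRP proteins form a complex that protects mitochondrial mRNAs and promotes their polyadenylation, and PNPT1 (polynucleotide phosphorylase) and the helicase SUPV3L1 form the complex that degrades mitochondrial RNA. All 10 proteins are made in the cytosol and imported, so their mRNAs can move independently of the RNA made inside the organelle.

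Mitochondrially encoded RNA fell in both lines after H2O2 while 0 of the 10 nuclear mRNAs passed the test as lower in TIGK and 1 did in HaCaT, counts near the 12.9% and 15.2% of all tested genes that were lower. In HaCaT, TFB1M, SLIRP, POLRMT and TFB2M rose by between 24.6% and 59.5% and LRPPRC fell by 14.3%, but of these calls only that of TFB1M held in every alternative run. TFB2M and LRPPRC lost theirs once gene length was allowed for, and POLRMT, SLIRP and TFB2M without 1 treated library. In TIGK no member passed the limit, with TFB1M and SLIRP the nearest to it. The most marked contrast lay between the lines: HaCaT had 2.70-fold the POLRMT mRNA and 4.95-fold the TFB1M mRNA of TIGK before treatment.

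The 12 libraries held between 30426401 and 49034244 counts, so a gene at the level of TFB1M in TIGK, the lowest of the set, still gave 135 reads or more in each library. The keratinocyte check held in every group: all 8 keratinocyte markers, KRT5, KRT14 and TP63 among them, were above 1 TPM (a count per base of gene length, scaled to the same total in each library), and summed to between 35028 and 49128 TPM. Marker lists for fibroblasts, melanocytes, immune cells and endothelial cells summed to at most 10.2 TPM in any library. Short gene models stood higher relative to long ones in the treated libraries, and this is set beside the HaCaT response below.

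Stretches of the TFB2M, POLRMT and TFB1M promoters are shown because these genes all rose in HaCaT and share a match to the NRF1 motif. They were thus picked with the response known. SLIRP rose in HaCaT without such a match, and in TIGK no member was called. NRF1, the nuclear respiratory factor, is a transcription factor known for driving nuclear genes of mitochondrial function. RefSeq promoters of 300 bases (250 before the start and 50 after it, GRCh38.p14) were found for all 10 members and searched on both strands for GCGCATGCG (NRF1), CCGGAAGT (ETS factors such as GABPA) and AAGATGGC (YY1). Capitals mark the matches. The TFB2M stretch lies at chr1:246566262-246566307, the POLRMT stretch at chr19:633538-633661 and the TFB1M stretch at chr6:155314577-155314646, all on the minus strand and written 5′ to 3′ in the direction of the gene.
TFB2M: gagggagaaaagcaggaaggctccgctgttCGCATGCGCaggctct
POLRMT: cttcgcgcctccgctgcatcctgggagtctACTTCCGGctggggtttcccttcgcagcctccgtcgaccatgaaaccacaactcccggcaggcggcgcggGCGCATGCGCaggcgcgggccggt
TFB1M: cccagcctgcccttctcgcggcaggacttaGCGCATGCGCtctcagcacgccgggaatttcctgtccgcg

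The NRF1 match was held by 3 of the 10 members, against 4.02% of the 11122 tested genes with a RefSeq promoter and 1.92% of all 35116 promoters. In POLRMT and TFB1M the match is read on both strands, as overlapping copies within the 10 capitals, and in TFB2M on the strand opposite to the gene. The first capital block in POLRMT is an ETS match on the opposite strand. ETS matches were also found in MTERF1 and TEFM, neither of which passed the test in either response, and ETS was matched in 9.36% of tested genes with a promoter. YY1 was matched in SLIRP, against 6.14% of those genes. TFAM, LRPPRC, PNPT1 and SUPV3L1 held none of these letters in the window. Over all 447 tested genes with the NRF1 match, 26.6% were called higher in HaCaT after H2O2, against 22.4% of the 11118 with a promoter and a result, and the median log2 fold changes were 0.10 and 0.065. The other motifs gave like values, 26% of the 1039 genes with the ETS match and 27.5% of the 683 with the YY1 match, so the share was not particular to NRF1. In TIGK 15.9% of the genes with the NRF1 match were called higher, 14.3% with the ETS match and 12.6% with the YY1 match. Of all with a promoter and a result 12% were called higher there. A match is a string of letters and says nothing of whether the factor was bound.

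Per base of gene length, LRPPRC was the most abundant of the 10 mRNAs in untreated cells of both lines, at 115 ± 6.06 TPM in TIGK and 103 ± 2.68 TPM in HaCaT (SD, n = 3). In TIGK it was followed by PNPT1 (74.6 TPM), TFB2M (71.8 TPM) and TFAM (65.0 TPM), then by SLIRP (48.8 TPM) and SUPV3L1 (46.9 TPM), with POLRMT at 21.6 TPM, MTERF1 at 11.8 TPM, TEFM at 9.74 TPM and TFB1M lowest at 6.99 TPM. The libraries of PNPT1 and TFB2M overlapped, as did those of SLIRP and SUPV3L1, so those neighbours did not differ beyond their spread. In HaCaT the order was LRPPRC, TFB2M (87.3 TPM), TFAM (71.0 TPM), PNPT1 (65.9 TPM), SLIRP (53.4 TPM), POLRMT (51.5 TPM), SUPV3L1 (50.1 TPM), TFB1M (30.6 TPM), MTERF1 (10.6 TPM) and TEFM (9.38 TPM). SLIRP, POLRMT and SUPV3L1 overlapped one another there, as did MTERF1 and TEFM. TFB1M was last in TIGK but stood well above MTERF1 and TEFM in HaCaT. By this measure the initiation factors TFAM and TFB2M had more abundant mRNAs than the polymerase in both lines. Without division by length, TFB2M was below POLRMT in Hctrl (means of 1684 and 2753 normalized counts). The length used for TPM is that of the gene model in the count table. The lengths of the transcripts present were not measured, so the order between genes and their ratios per base depend on these models.

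**Figure D1:**
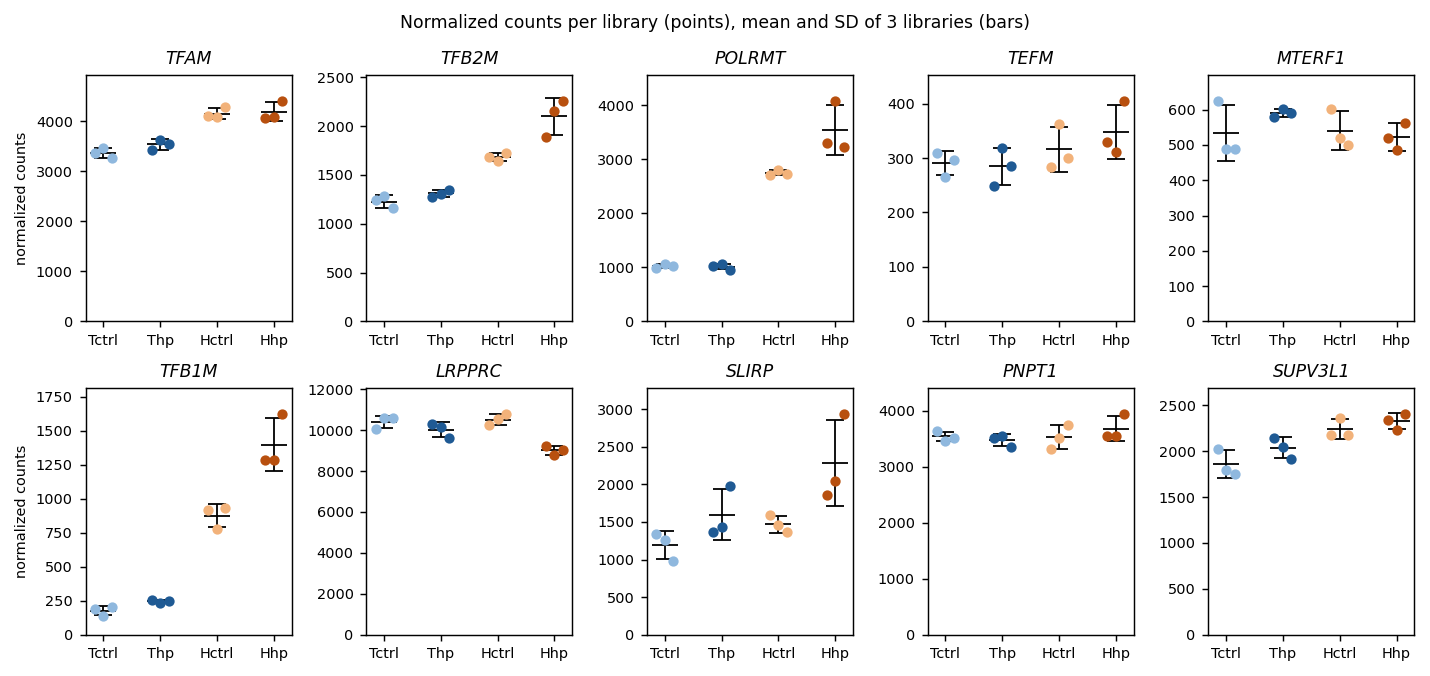
Normalized counts of each of the 10 genes (vertical axes from 0) in every library of Tctrl, Thp, Hctrl and Hhp. Points are libraries and bars the mean and SD of 3 libraries. TFB1M and POLRMT stood several times higher in HaCaT than in TIGK in every library, and LRPPRC was the one gene with all Hhp libraries below all other libraries.

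The first comparison asked which of these mRNAs changed in TIGK. By edgeR's quasi-likelihood test at an adjusted p under 0.01, 0 of the 10 members were called, where 23.2% of all tested genes were called (10.2% higher, 12.9% lower). At an adjusted p under 0.05 there were 2, TFB1M and SLIRP, where 5998 of all 16618 tested genes were called. As in all bulk libraries, fewer cells with an RNA and less RNA per cell cannot be told apart. At the limit of 0.01, DESeq2 on all 12 libraries called 1, TFB1M, and DESeq2 on the TIGK libraries alone called 0. Of all 16618 tested genes they called 4653 and 4877. The median log2 fold change of the 10 was 0.08, against 0.0084 for all tested genes.

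The initiation factors held their level in TIGK within narrow limits. TFAM (ENSG00000108064, chr10:58385022-58399221, GRCh38 as in the count table) was at 3361, 3475 and 3271 normalized counts (counts scaled to a library of mean size) in Tctrl and at 3430, 3635 and 3555 in Thp. The groups overlapped, and the log2 fold change was 0.07, with a 95% interval from -0.04 to 0.18. POLRMT (ENSG00000099821, chr19:617224-633604) was at 981, 1056 and 1025 in Tctrl and at 1030, 1057 and 956 in Thp, a log2 fold change of -0.01 with an interval from -0.18 to 0.16. TFB2M (ENSG00000162851, chr1:246540560-246566324) had a log2 fold change of 0.10 with an interval from -0.06 to 0.25.

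TFB1M, the rRNA methyltransferase, came closest to the limit in TIGK. It lies on the minus strand at chr6:155257509-155314493 (ENSG00000029639), and it held 188, 140 and 202 normalized counts in Tctrl and 255, 232 and 249 in Thp. All treated libraries were above all untreated ones, and the log2 fold change was 0.47 ± 0.139 (SE) with an adjusted p of 0.0125 in edgeR. It passed the limit under several other settings, DESeq2 on all libraries among them (adjusted p 0.0034). TIAM2, which shares 215 bases with TFB1M on the opposite strand, had a log2 fold change of 0.69 in TIGK (adjusted p 0.00106). CLDN20, which shares 12536 bases with it on that strand at a mean of 11.4 counts, had one of -2.44 (adjusted p 0.0117). The shared bases are counted from gene start to gene end with introns included, and the overlap of the counted exons was not measured. Without strand-specific counting, reads from any exons that overlap cannot be told apart.

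SLIRP, the small RNA-binding partner of LRPPRC, was at 1339, 1254 and 979 normalized counts in Tctrl and at 1370, 1437 and 1981 in Thp. The groups did not overlap, but Thp replicate 3 stood well above the others. The log2 fold change of 0.43 ± 0.154 had an adjusted p of 0.038, and without that library it was 0.27 (adjusted p 0.218). Among all tested genes, 51.1% had groups that did not overlap in this comparison, so non-overlap in 2 of 10 members was below the background. The remaining members in TIGK, TEFM, MTERF1, LRPPRC, PNPT1 and SUPV3L1, had log2 fold changes between -0.05 and 0.14, and the groups of each overlapped. LRPPRC itself was at 10070, 10571 and 10573 in Tctrl and at 10321, 10148 and 9593 in Thp, a log2 fold change of -0.05 with an interval from -0.16 to 0.05.

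The same comparison in HaCaT gave 4 members higher and 1 lower, 5 of 10, where 34.1% of all tested genes were called (18.9% higher, 15.2% lower). The same 5 had groups that did not overlap, against 53.8% of all tested genes. Those that rose were TFB1M, SLIRP, POLRMT and TFB2M, which belong to promoter opening, transcription, rRNA methylation and mRNA protection, and LRPPRC fell. TFAM, TEFM, MTERF1, PNPT1 and SUPV3L1 did not pass the test. The median log2 fold change of the 10 was 0.10, against 0.0375 for all tested genes.

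POLRMT, the mitochondrial RNA polymerase, was at 2715, 2809 and 2733 normalized counts in Hctrl and at 3305, 4078 and 3233 in Hhp. The groups did not overlap, and Hhp replicate 2 stood well above the other treated libraries. The log2 fold change was 0.36 ± 0.0759 (28.5% higher, adjusted p 0.00075). Without Hhp replicate 2 it was 0.21, and the call was lost (adjusted p 0.0135).

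TFB2M, which opens the mitochondrial promoter, was at 1686, 1645 and 1721 in Hctrl and at 1886, 2150 and 2256 in Hhp. Every treated library was above every untreated one, with a log2 fold change of 0.32 ± 0.0702 (24.6% higher, adjusted p 0.00122). The call was also lost without Hhp replicate 2 (0.27, adjusted p 0.0142) and when edgeR was fitted to the HaCaT libraries alone (0.28, adjusted p 0.011). TFAM, its partner at the promoter, held 4101, 4084 and 4278 in Hctrl and 4075, 4091 and 4407 in Hhp, with a log2 fold change of 0.01 and an interval from -0.10 to 0.12.

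The largest rise in HaCaT was that of TFB1M, from 917, 777 and 929 normalized counts in Hctrl to 1284, 1281 and 1621 in Hhp. The groups were well apart, and the log2 fold change of 0.67 ± 0.115 (59.5% higher) had an adjusted p of 0.000123. TIAM2, its neighbour on the other strand, had a log2 fold change of 0.04 in HaCaT (adjusted p 0.865). TFB1M kept its direction and its side of the limit in all 24 alternatives run for this comparison.

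As first fitted, LRPPRC and SLIRP moved in opposite directions in HaCaT although their proteins work as a pair. Their gene models are of unlike length, 9760 and 2631 bases. With the offset for gene length described below, LRPPRC was at -0.06 by edgeR (adjusted p 0.33). LRPPRC (ENSG00000138095, chr2:43886508-43996005) was at 10230, 10535 and 10771 in Hctrl and at 9238, 8788 and 9009 in Hhp, with no overlap, a log2 fold change of -0.22 ± 0.0501 and an adjusted p of 0.0014. SLIRP (ENSG00000119705, chr14:77708071-77761104) was at 1585, 1453 and 1362 in Hctrl and at 1860, 2050 and 2930 in Hhp. Its groups did not overlap either, but Hhp replicate 3 was far above the other treated libraries, and the log2 fold change was 0.64 ± 0.152 (55.4% higher, adjusted p 0.00222). Without that library it was 0.41 and no longer passed (adjusted p 0.0143). The call was also lost, at a change of about the same size, without Hctrl replicate 3 (0.59, adjusted p 0.0141) and with DESeq2 on all libraries (0.62, adjusted p 0.0105). SNW1, a splicing and transcription cofactor, lies on the opposite strand, and its span from gene start to gene end overlaps that of SLIRP by 43506 bases. This span includes introns, and the overlap of the counted exons was not measured. SNW1 rose by 0.25 in HaCaT (adjusted p 0.00698) and by 0.29 in TIGK (adjusted p 0.00316). Reads of any exons that overlap cannot be assigned without strand.

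The RNA degradation pair stayed within its spread in HaCaT. PNPT1 (ENSG00000138035, chr2:55634265-55693910) was at 3323, 3523 and 3754 in Hctrl and at 3547, 3557 and 3939 in Hhp, with a log2 fold change of 0.06 and an interval from -0.07 to 0.18. SUPV3L1 (ENSG00000156502, chr10:69180232-69209099) was between 2174 and 2365 in Hctrl and between 2235 and 2402 in Hhp, with a log2 fold change of 0.06 and an interval from -0.09 to 0.20. For the elongation factor TEFM (ENSG00000172171, chr17:30897336-30906820), at 284 to 405 normalized counts in HaCaT, the interval was wider, from -0.14 to 0.44. For the terminator MTERF1 (ENSG00000127989, chr7:91692008-91880720) it ran from -0.28 to 0.18. Changes of these low mRNAs within those intervals were therefore not excluded.

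**Figure D2:**
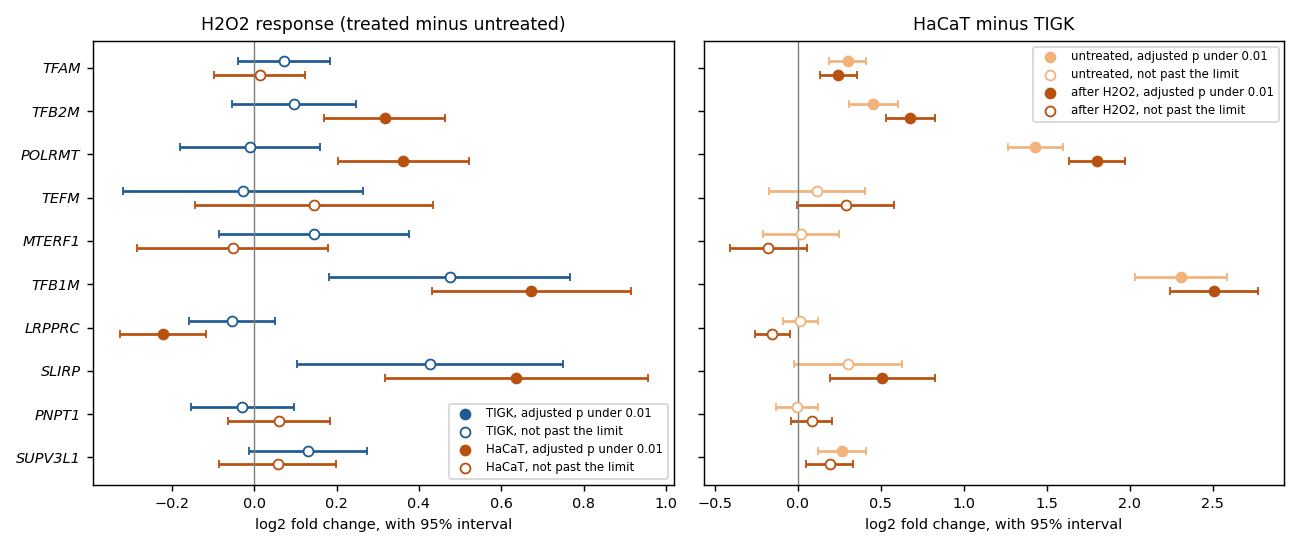
Log2 fold changes (horizontal axes) with 95% intervals for each of the 10 genes, left for the H2O2 response in TIGK (blue) and HaCaT (brown), right for HaCaT minus TIGK before (light) and after (dark) H2O2. Filled points passed an adjusted p of 0.01: 0 in TIGK, 5 in HaCaT, and 5 in each comparison of the lines.

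Gene length moved with the response in both lines. Relative to the untreated libraries of the line, the median of the 4159 genes with models of at most 2567 bases stood above that of the 4156 genes of at least 6963 bases by 0.20, 0.29 and 0.44 on the log2 scale in the 3 Hhp libraries, and by 0.19, 0.19 and 0.20 in the Thp libraries, against -0.11 to 0.08 in untreated ones. Of the short genes 21.4% were called higher and 6.83% lower in HaCaT, and of the long genes 9.07% higher and 30.6% lower. In TIGK the shares were 8.22% and 5.05% of the short genes and 8.04% and 24.6% of the long ones. TFB2M (1848 bases), SLIRP (2631 bases) and TFB1M (2736 bases) have the shortest models of the 10, LRPPRC (9760 bases) has the longest, and POLRMT (5124 bases) lies between them. The library with the highest short-gene excess, Hhp replicate 3, was also the one with the highest SLIRP, TFB1M and TFB2M. Among the Hhp libraries it also had the most normalized counts of TFAM (4407), PNPT1 (3939), SUPV3L1, TEFM and MTERF1, whose models are longer. For POLRMT and LRPPRC another Hhp library was the highest.

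The HaCaT response was therefore fitted again with an offset for gene length in each library, an alternative chosen after seeing the data. POLRMT (0.35, adjusted p 0.000471), TFB1M (0.55, adjusted p 0.000518) and SLIRP (0.51, adjusted p 0.00506) still passed. TFB2M dropped to 0.18 (adjusted p 0.019), and LRPPRC to -0.06 (adjusted p 0.33), so that 3 members were higher and 0 lower. Of all tested genes 18.1% were higher and 13.3% lower by this fit in HaCaT. In TIGK the same fit called 0 members, with TFB1M at 0.43 (adjusted p 0.0182), where 12.9% of all tested genes were higher and 11.6% lower. What caused the shift between short and long gene models was not tested.

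**Figure D3:**
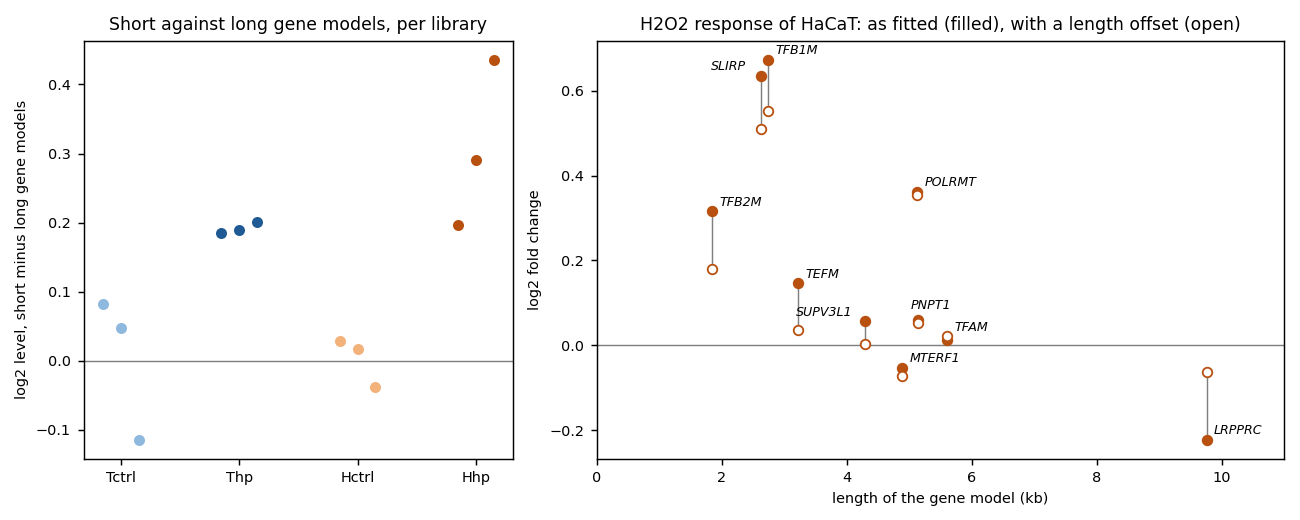
Left, the median log2 level of short minus long gene models in each library, relative to the untreated libraries of its line. Right, the log2 fold change in HaCaT after H2O2 against the length of the gene model in kilobases, as fitted (filled) and with a length offset (open). LRPPRC moved from -0.22 to -0.06 and TFB2M from 0.32 to 0.18, while POLRMT moved from 0.36 to 0.35.

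The difference between the responses was tested directly. It was called for 0 of the 10 members, where 5.3% of all genes were called (2.32% with a more positive response in TIGK, 2.98% with a more positive one in HaCaT). The part of these calls with a more positive response in TIGK was 43.7% and depended on the setting, at 60.1% with the mitochondrially encoded genes left out of the table, 63.5% with edgeR's own filter and up to 66.6% with a library left out. At an adjusted p under 0.05 there was 1 member, POLRMT, where 2019 of all 16618 tested genes were called. DESeq2 called 0 members at the limit of 0.01, and 1426 of all 16618 tested genes. POLRMT came closest, with a response lower in TIGK by 0.37 ± 0.111 on the log2 scale, an interval of the difference from -0.60 to -0.14 and an adjusted p of 0.0353. With single libraries left out it ranged from -0.43, without Hhp replicate 3, where it passed the limit (adjusted p 0.00916), to -0.20, without Hhp replicate 2 (adjusted p 0.195). For TFB1M the difference was -0.20 with an interval from -0.58 to 0.18, and for SLIRP -0.21 with an interval from -0.66 to 0.25, so that neither gene was shown to respond differently in the 2 lines.

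Before treatment, HaCaT and TIGK differed in 5 members, all higher in HaCaT, where 59.9% of all genes were called (29.1% higher, 30.8% lower). The widest gaps were in TFB1M, which had a mean of 874 ± 84.6 normalized counts in Hctrl and 177 ± 32.5 in Tctrl, and in POLRMT, with means of 2753 ± 50.1 and 1021 ± 37.3 (SD, n = 3). The log2 differences were 2.31 ± 0.132 for TFB1M (4.95-fold, adjusted p 1.03e-11) and 1.43 ± 0.0796 for POLRMT (2.70-fold, adjusted p 7.03e-12). The libraries of the lines did not overlap for either gene, which held for 6 of the 10 members and for 73.3% of all tested genes. TFB2M was higher by 0.46 (adjusted p 1.31e-05), TFAM by 0.30 (adjusted p 4.99e-05) and SUPV3L1 by 0.27 (adjusted p 0.00193). The call for SUPV3L1 was lost with library totals (0.19, adjusted p 0.0171), without Tctrl replicate 3 (0.23, adjusted p 0.012) and without Hctrl replicate 2 (0.23, adjusted p 0.0153).

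The other members did not pass the test between the untreated lines. LRPPRC differed by 0.01 with an interval from -0.09 to 0.12, PNPT1 by -0.00 with an interval from -0.13 to 0.12, MTERF1 by 0.02 and TEFM by 0.12. SLIRP differed by 0.30, as much as TFAM, with groups that did not overlap but an interval from -0.02 to 0.63 (adjusted p 0.0917). It passed the limit with unfiltered genes (0.33, adjusted p 0.000144) and without both H2O2 replicate 3 libraries (0.30, adjusted p 0.00758). By role, all 3 initiation genes were higher in HaCaT.

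After H2O2 there were again 5 members higher in HaCaT and 0 lower, where 60% of all genes were called (30.2% higher, 29.8% lower). They were TFB1M (2.51 ± 0.127, 5.68-fold), POLRMT (1.80 ± 0.0798, 3.49-fold), TFB2M (0.68, adjusted p 7.22e-08), TFAM (0.24, adjusted p 0.000464) and SLIRP (0.51, adjusted p 0.00588). The SLIRP libraries overlapped between the lines, and its call was lost under 11 of the 24 alternatives. SUPV3L1, called before treatment, was at 0.19 with an adjusted p of 0.0177. LRPPRC stood lower in HaCaT by 0.15 on the log2 scale with an adjusted p of 0.0112. It was called lower by DESeq2 (1 of 10 members) and under most of the other settings. DESeq2 on all libraries called 5389 of all 16618 tested genes lower. These comparisons share the treated and untreated libraries with the responses above and are not independent of them.

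Partner genes can be set against each other within a library, per base of gene length and without any scaling between libraries. The ratio of LRPPRC to SLIRP mRNA was 1.94 ± 0.196 in Hctrl and 1.11 ± 0.258 in Hhp, and 2.40 ± 0.457 in Tctrl and 1.75 ± 0.387 in Thp (SD, n = 3). In HaCaT the treated libraries lay below the untreated ones without overlap, down to 0.829 in Hhp replicate 3, whereas in TIGK the highest treated library (2.0301) stood just above the lowest untreated one (2.0266). TFB2M exceeded TFB1M by 10.6 ± 2.62 times in Tctrl, 7.91 ± 0.466 times in Thp, 2.87 ± 0.232 times in Hctrl and 2.24 ± 0.219 times in Hhp. TFAM exceeded POLRMT by 3.02 ± 0.106 times in Tctrl and 3.19 ± 0.185 times in Thp, but by only 1.38 ± 0.0509 times in Hctrl and 1.10 ± 0.167 times in Hhp. In Hhp replicate 2, POLRMT was the more abundant per base (a TFAM to POLRMT ratio of 0.917). Its raw count there was just below that of TFAM (log2 ratio 0.0049). Without division by gene length the ratios take other sizes, such as a mean log2 ratio of LRPPRC to SLIRP of 2.84 in Hctrl in place of 0.95. The division moves every library of a pair alike on the log2 scale. The PNPT1 to SUPV3L1 ratio lay between 1.24 and 1.68 in all 12 libraries. Ratios between genes of unlike length, LRPPRC to SLIRP above all, move with the length shift given above.

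**Figure D4:**
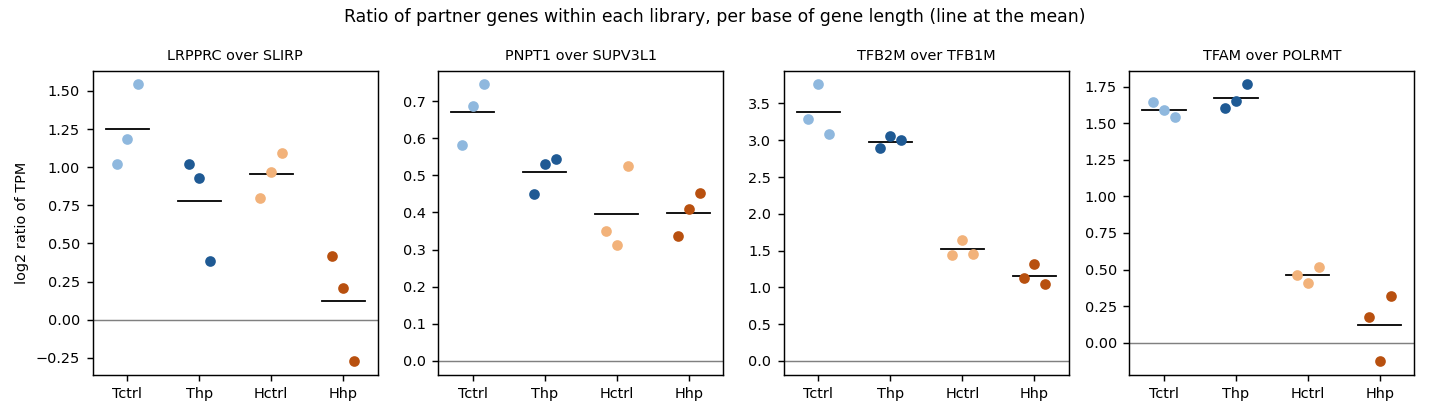
Log2 ratio of TPM (vertical axes, which differ between panels) of 4 gene pairs in every library, with a line at the group mean. The ratio of LRPPRC to SLIRP was lowest in Hhp, and the ratios of TFB2M to TFB1M and of TFAM to POLRMT were lower in every HaCaT library than in every TIGK library.

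Beside these mRNAs, the RNA encoded by the mitochondrial genome itself fell. The 13 mitochondrial protein genes held 2.90% ± 0.0642 of all counts in Tctrl and 1.28% ± 0.0562 in Thp, and 4.74% ± 0.0566 in Hctrl and 3.01% ± 0.119 in Hhp (SD, 3 libraries each). The share in Thp was 0.441 of that in Tctrl and the share in Hhp 0.635 of that in Hctrl. In both lines all treated libraries were below all untreated ones, and the exact two-sided permutation test gave a p of 0.1 in each, the smallest that 3 libraries against 3 allow. By edgeR 13 of the 13 genes were lower in TIGK, the median of their log2 fold changes being -0.90, and 10 of 13 in HaCaT, the median being -0.54. With the length offset the counts were again 13 and 10, and the medians -0.82 and -0.53.

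The fall was uneven along the mitochondrial genome. MT-ND6, a complex I subunit and the one protein gene read from the opposite strand, fell most among the protein genes (-3.86 in TIGK, -3.07 in HaCaT), followed by MT-ND5 (-3.32 and -1.47), another complex I subunit, and MT-CO1 (-2.32 and -1.38), a core subunit of cytochrome oxidase. MT-ND2 (-0.49) and MT-CO2 (-0.53) fell least in TIGK, and MT-CO2 (-0.36) and MT-CYB (-0.42) fell least among those called in HaCaT. The 16S rRNA gene MT-RNR2 fell by 1.81 and 2.06 on the log2 scale, in HaCaT more than any protein gene except MT-ND6. Because strand use in counting is not given in the sources used here, reads of MT-ND6 and of transcripts antisense to it cannot be told apart. PolyA selection takes RNAs by their tails, and the tails of the mitochondrial RNAs, MT-ND6 and MT-RNR2 among them, were not measured. A change of the tail and less RNA therefore cannot be told apart either.

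The members did not follow this fall. Their log2 fold changes ranged from -0.05 to 0.47 in TIGK, a range that did not meet that of the 13 mitochondrial protein genes (-3.86 to -0.49). In HaCaT they ranged from -0.22 to 0.67 against -3.07 to -0.14, and the ranges met through LRPPRC alone among the members. Among mitochondrial genes, the fall was steeper in TIGK for 7 of the 13 protein genes by the test of the difference. For the 2 rRNA genes that test called 0, with differences of -0.12 and 0.24 (TIGK minus HaCaT). No member differed in response at that limit. Proteins were not measured in these libraries.

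**Figure D5:**
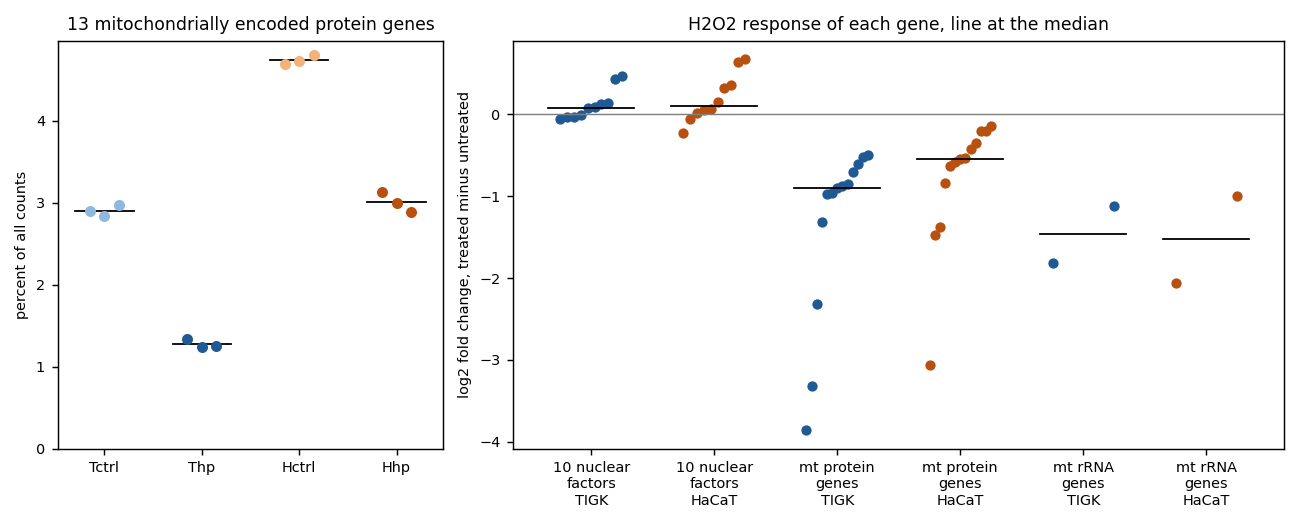
Left, the percent of all counts on the 13 mitochondrially encoded protein genes in each library, with a line at the group mean. Right, log2 fold changes after H2O2 of the 10 nuclear factors, the 13 mitochondrial protein genes and the 2 mitochondrial rRNA genes in TIGK (blue) and HaCaT (brown), with a line at the median. The mitochondrial genes lie below 0 in both lines and the nuclear factors on both sides of it.

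Other nuclear genes of mitochondrial RNA and DNA metabolism were read from 5 lists made by function, of which 69 of 70 genes were tested. In TIGK 14 were called higher and 4 lower, and in HaCaT 18 higher and 3 lower, with medians of 0.11 and 0.12 over all 69. Of all tested genes 10.2% were called higher and 12.9% lower in TIGK, and 18.9% and 15.2% in HaCaT. Of the 20 genes for processing and decay of mitochondrial RNA, 5 rose in TIGK and 7 in HaCaT and 0 fell in either. With the length offset, 4 rose and 1 fell in TIGK, and 8 rose and 1 fell in HaCaT. By that fit 12.9% of all tested genes rose and 11.6% fell in TIGK, and 18.1% and 13.3% in HaCaT. C6orf203 (also named MTRES1), which sustains mitochondrial transcription under stress, rose by 0.56 in both lines, and FASTKD1, a FASTK-family RNA-binding protein, was the second highest in TIGK (0.49). FASTKD5, which acts in non-canonical transcript processing (0.25), and TRMT10C, a subunit of mitochondrial RNase P (0.28), were the lowest of those called in TIGK. In HaCaT the second highest was HSD17B10, another RNase P subunit (0.40), and the lowest called were ELAC2, which cuts the 3′ ends of tRNAs (0.25), and MTERF3 (0.35).

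Of the 17 genes for modification of mitochondrial tRNA and rRNA, 3 rose in TIGK and 4 in HaCaT, with 0 lower. Of all tested genes 10.2% rose in TIGK and 18.9% in HaCaT. With the length offset, 3 (17.6%) rose in each line and 0 fell, where 12.9% of all tested genes rose in TIGK and 18.1% in HaCaT. RPUSD3, a pseudouridine synthase family member, rose in both (0.46 and 0.70). The rRNA methyltransferases MRM1 (0.62) and MRM3 (0.34) rose in TIGK, and the tRNA methyltransferase TRMT61B (0.36), the tRNA modifier GTPBP3 (0.31) and the rRNA chaperone ERAL1 (0.30) in HaCaT. Translation factors rose in 3 of 11 cases in TIGK and 5 of 11 in HaCaT, with 0 lower: the release factor family member MTRF1 (0.63), the initiation factor MTIF2 (0.38) and the recycling factor GFM2 (0.27) in TIGK, and in HaCaT MTIF3 (0.53) and the elongation factor TUFM (0.40) at the top with TACO1 (0.32) and MTIF2 (0.27) at the bottom. With the length offset, 3 of the 11 rose in each line and 0 fell.

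Genes of mitochondrial DNA replication moved in both directions, 2 of 12 higher and 2 lower in each line, and 3 and 3 with the length offset. POLG, the catalytic subunit of the DNA polymerase, fell in both (-0.37 in TIGK, -0.36 in HaCaT). TOP3A (-0.29) fell in TIGK and the helicase TWNK (-0.29) in HaCaT, while the nuclease MGME1 rose in both (0.26 and 0.34), with PRIMPOL (0.64) in TIGK and the single-strand binding protein SSBP1 (0.37) in HaCaT. Of 9 tested nuclear regulators, PPRC1, a coactivator of the PGC-1 family, fell in both (-0.27 and -0.39). PPARGC1B, of the same family, fell in TIGK (-0.85), where MYC rose (0.76). NRF1 itself had log2 fold changes of 0.24 in TIGK (adjusted p 0.0453) and 0.23 in HaCaT (adjusted p 0.039), past the limit in neither. With the length offset the 5 lists together had 15 genes higher and 6 lower in TIGK and 17 higher and 6 lower in HaCaT, where 12.9% of all tested genes were called higher and 11.6% lower in TIGK and 18.1% and 13.3% in HaCaT.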

How the data were processed

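RNA from 12 libraries (4 groups of 3) was sequenced after polyA selection. The authors deposited raw counts per gene on GRCh38, which they made with HISAT2 2.0.5, StringTie 1.3.3b and featureCounts 1.5.0-p3 per the paper's methods and the submitters' processing notes, which also name HISAT2 2.0.0. The sources do not settle which was used, and the annotation release, strand setting and treatment of shared reads are not given in the sources used here. Files of the authors' own fold changes and p-values were not used. One label field names the agent of the treated replicates differently, while the treatment protocol gives H2O2 for all, which was followed.

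Testing was limited to genes averaging 10 or more raw counts over the libraries and used edgeR 4.0.16 (R 4.3.3, limma 3.58.1): TMM scaling, a quasi-likelihood fit of 4 group means over all libraries, Benjamini-Hochberg adjustment over all 16618 genes, limit 0.01. Normalized counts are TMM-scaled to the mean library of 36279200 counts. TPM was computed from counts and the deposited gene lengths. TMM factors lay between 0.962 and 1.04, and the common dispersion was 0.0073. Replicate pairs differed by more than sampling noise (chi-square per degree of freedom 4.45 to 28.2), so each library counted once. Scripts were tested on simulated data. Alternatives were DESeq2 1.42.0, other scalings, filters and limits, a replicate block, leaving out libraries, and 2 chosen after seeing the data. Intervals are at 95%.

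The members and the gene lists, which were written by hand from general knowledge, were chosen with earlier results of these data known. All members are described. Of each other list the 2 highest and 2 lowest called genes of each response are named, and for each member the gene with the highest Pearson r of log2 CPM (prior count 2) among genes with at least 100 normalized counts. Motifs of NRF1, ETS factors and YY1 were searched in RefSeq promoters. TIAM2, CLDN20 and SNW1 were named for overlapping a member, and NRF1 for its motif.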

Additional observations from a re-analysis of the deposited data

Results flagged for a closer look

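No member passed the test of a difference between the responses of TIGK and HaCaT, and groups of 3 libraries are too small for a test of single outlying libraries. The genes below are context genes whose responses differed between the lines by edgeR's test of the difference itself at an adjusted p under 0.01, each given as the response of TIGK minus that of HaCaT on the log2 scale. Among mitochondrially encoded genes the difference was -1.84 for MT-ND5 (adjusted p 4.7e-10), -0.94 for MT-CO1 (2.53e-07 by the same test), -0.79 for MT-ND6, -0.73 for MT-ATP6, -0.68 for MT-ND4L, -0.54 for MT-CYB and -0.39 for MT-ND4, all a steeper fall in TIGK. Of the nuclear genes in the functional lists, the translation elongation factor TUFM differed by -0.33 (adjusted p 0.00837), having risen in HaCaT alone past the limit, and MYC by 0.90 (adjusted p 1.44e-07), from a mean of 22158 normalized counts in Tctrl to 37480 in Thp, against 22719 in Hctrl and 20564 in Hhp.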

How the results depend on the processing

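No call of a member changed direction under any alternative. In TIGK, where 0 members were called, 1 was called higher with DESeq2 on all libraries, library totals, edgeR's own filter or the replicate block, 2 without a filter or at an adjusted p of 0.05, and 0 to 2 when libraries were left out in turn. TFB1M was among them each time, and without a filter, at 0.05 and without Hhp replicate 3 SLIRP joined it. Of all 16618 tested genes, 2218 were called higher with DESeq2 on all libraries, 1973 with library totals and 1360 with the replicate block. The counts were 2086 of 17886 with edgeR's filter, 2571 of 33620 without a filter and 2877 of 16618 at 0.05. With single libraries left out they lay between 1173 and 2328. In HaCaT the count of members higher ranged from 2 to 4 with libraries left out. It was 2 without Hhp replicate 2, where 2061 of all 16618 tested genes were called higher. With the length offset 0 members were lower, where 13.3% of all tested genes were. Between the lines after H2O2, 1 member was lower, LRPPRC, with DESeq2 (both forms), RLE scaling, library totals, no mitochondrial genes, no filter, edgeR's filter, a limit of 0.05, the length offset and without both H2O2 replicate 3 libraries, and 0 or 1 with single libraries left out. Of all tested genes, between 4502 (without both H2O2 replicate 3 libraries) and 5707 (at 0.05) were lower under these settings. For the difference of the responses 1 was lower, POLRMT, at 0.05, where 1172 of all 16618 tested genes were. With libraries left out 0 to 1 were lower, with 1 without Hhp replicate 3, where 637 of all 16618 were. With the 2 mitochondrial rRNA genes the share of counts changed by -1.96 points in TIGK and -2.78 in HaCaT in place of -1.62 and -1.73. The partner ratios took other sizes without division by gene length, as given above.

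Signs turned in members that were not called and lay near 0, and the cause was not tested. In TIGK, POLRMT was at 0.0073 with library totals, 0.024 without a filter, 0.026 with edgeR's filter, 0.033 without both H2O2 replicate 3 libraries, 0.00085 with the length offset and -0.037 to 0.064 with libraries left out. TEFM was at 0.0053 without a filter, 0.0069 with edgeR's and -0.089 to 0.054 with libraries left out, PNPT1 at 0.0049, 0.0061 and -0.039 to 0.027 under the same, and LRPPRC at 0.060 with the length offset and -0.077 to 0.0069. In HaCaT, TFAM was at -0.0022 with DESeq2 on all libraries, -0.027 with DESeq2 and -0.024 with edgeR on HaCaT alone, -0.0023 with RLE scaling, -0.028 without mitochondrial genes, -0.011 without a filter, -0.015 with edgeR's filter, -0.025 without both replicate 3 libraries and -0.025 to 0.034 with libraries left out, and MTERF1 at -0.11 to 0.034. Between the untreated lines, MTERF1 was at -0.052 with library totals, -0.00098 with the length offset and -0.066 to 0.15, LRPPRC at -0.0037 with DESeq2 on the groups alone, -0.060 with library totals, -0.035 with the length offset and -0.0083 to 0.044, and PNPT1 at 0.024 without a filter, 0.017 with edgeR's and -0.050 to 0.039. For the difference of the responses, SLIRP ran from -0.33 to 0.014 and PNPT1 from -0.13 to 0.0039 with libraries left out.

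Replicate numbers did not pair the libraries: correlations of deviations between same-numbered libraries of a line lay between -0.03 and 0.0090 (6 pairs). A fit with the replicate number as a block called TFB1M in TIGK (0.48, adjusted p 0.00475) and changed no other call of a member. The 95% intervals of TEFM and SLIRP reached about 0.3 to either side on the log2 scale, and SLIRP, with more counts than TEFM, had the wider one, so its limit is the spread between libraries.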

Other observations

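For each member, the other gene whose log2 level tracked it most closely over the 12 libraries was named from 11763 candidates. The libraries fall into 4 groups, so these correlations mostly repeat the differences between lines and treatments and are given as descriptions. POLRMT was most like SURF4 (r = 0.997), TFB1M like ACSS2 (0.994), TFB2M like TIMP1 (0.993), TFAM like PUM3 (0.987), SLIRP like SNRPD3 (0.983), SUPV3L1 like SS18L2 (0.956), LRPPRC like IKZF4 (0.954), TEFM like TMEM199 (0.878), PNPT1 like DKC1 (0.806) and MTERF1 like RAB30-AS1 (0.775). Between members, POLRMT and TFB1M had the closest pattern (r = 0.970) and LRPPRC and SLIRP the most opposed (-0.849). These levels carry no length offset, and LRPPRC has the longest model of the 10 (9760 bases) while that of SLIRP is short (2631 bases). Of the transcription factors for which promoters were searched, NRF1, GABPA and YY1 did not pass the limit in either response. GABPA had log2 fold changes of 0.21 in TIGK (adjusted p 0.0201) and 0.00 in HaCaT, and YY1 -0.03 and -0.02. The other ETS factors were not examined.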
